A study of Mus musculus with 15 samples.

Results

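Cytosine methylation was examined at 33 genes that mark the glial cells and the microglia of the brain, in the dentate gyrus of mice kept under 3 kinds of housing. The genes were 10 astrocyte genes (Gfap, Aqp4, Aldh1l1, Aldoc, Slc1a2, Slc1a3, S100b, Sox9, Gja1 and Gjb6), 14 genes of the oligodendrocyte lineage (Mbp, Mog, Mag, Mobp, Cnp, Olig1, Olig2, Sox10, Pdgfra, Cspg4, Ugt8a, Myrf, Opalin and Cldn11) and 9 microglial genes (Cx3cr1, Csf1r, P2ry12, Aif1, Tmem119, Trem2, C1qa, Spi1 and Irf8). They were listed by name as textbook marker genes, with no measured value in the rule, from 21627 protein-coding genes with a known position. The list was nevertheless drawn up with earlier results of these data known. Every CpG position inside one of these genes or within 2 kb of it was taken, which gave 536 of 455664 CpG positions on the autosomes and the X chromosome. A position here is 1 cytosine on 1 strand. DNA came from the micro-dissected dentate gyrus of 15 female C57BL/6JRj mice, an inbred strain, all 7.5 months old and with no genetic change or drug named. The standard group (5 mice) lived in standard cages for 6 months, the enriched group (5 mice) lived in an enriched environment for 6 months, and the withdrawal group (5 mice) had 3 months of enrichment and then 3 months of standard cages. Each sample was 1 piece of mixed tissue, and at every gene below a change in the share of a cell type and a change in methylation within cells cannot be told apart. Methylation of bulk DNA also gives no direct check of which cells a sample held.

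Astrocytes take up glutamate, buffer ions and water and feed neurons; oligodendrocytes wrap axons in myelin and arise throughout life from precursors that carry the receptor Pdgfra and the proteoglycan Cspg4; microglia are the resident macrophages of the brain and need the receptor Csf1r to survive. In mammals most CpGs are methylated, CpG-dense gene starts are mostly not, and genes that define a cell type often have CpG-poor control regions that are unmethylated in the cells that use them and methylated in other cells. In a mixed tissue the methylation level of such a region can therefore lie between both ends. The dentate gyrus is rich in granule neurons, so that glial cells contribute only part of its DNA. Reduced representation bisulfite sequencing (RRBS) reads short CpG-rich fragments cut by a restriction enzyme, after a chemical step that changes unmethylated cytosines only, and it sees only the CpGs on such fragments.

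The stretches of RefSeq sequence before the start of 4 of these genes (build GRCm38.p6, each on the gene's own strand, 5′ to 3′, up to the outermost annotated gene start) are shown because they span the range of CpG density among the members, and because the measured levels near those starts span the range of methylation. In the stretch of Aldh1l1, an astrocyte enzyme of folate metabolism (plus strand, chr6:90550543-90550767), capitals mark the CpGs that have a measured value. In Olig2, a transcription factor of the oligodendrocyte lineage (plus strand, chr16:91225300-91225549), in Irf8, a transcription factor of microglia (plus strand, chr8:120736108-120736357), and in Aif1, which encodes the microglial protein Iba1 (minus strand, chr17:35176084-35176302), capitals mark every CG.
Aldh1l1: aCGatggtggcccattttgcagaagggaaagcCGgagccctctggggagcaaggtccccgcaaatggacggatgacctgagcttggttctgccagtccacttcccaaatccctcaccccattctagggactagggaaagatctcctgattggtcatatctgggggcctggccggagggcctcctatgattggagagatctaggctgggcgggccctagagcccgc
Olig2: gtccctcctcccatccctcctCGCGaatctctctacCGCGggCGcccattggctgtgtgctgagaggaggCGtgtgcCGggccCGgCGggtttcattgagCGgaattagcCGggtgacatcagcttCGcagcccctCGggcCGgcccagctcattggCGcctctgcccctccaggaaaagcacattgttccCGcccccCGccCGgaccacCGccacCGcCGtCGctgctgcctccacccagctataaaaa
Irf8: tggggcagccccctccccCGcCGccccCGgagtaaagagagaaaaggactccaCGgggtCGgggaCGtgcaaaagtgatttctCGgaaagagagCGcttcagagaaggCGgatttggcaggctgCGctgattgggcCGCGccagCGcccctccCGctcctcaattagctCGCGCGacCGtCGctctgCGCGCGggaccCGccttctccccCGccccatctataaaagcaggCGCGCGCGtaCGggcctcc
Aif1: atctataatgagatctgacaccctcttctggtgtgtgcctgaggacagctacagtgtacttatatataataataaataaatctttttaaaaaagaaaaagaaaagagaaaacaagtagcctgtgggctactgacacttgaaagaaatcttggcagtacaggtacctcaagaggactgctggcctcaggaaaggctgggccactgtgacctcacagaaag

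The letters CG, which read the same on both strands, were counted in windows of 300 bases (250 before and 50 after each annotated start) for the 23 members with an entry. The window of Olig2 held 25 and that of Irf8 at its outermost start 38, and 18.6% and 4.98% of all 32619 windows held at least as many. A second window of Irf8, at an annotated start inside the gene, held 8. That of Aldh1l1 held 9, and that of Aif1 held 1, a count at or under which 13.9% of all windows lay. Over the 27 windows of the members the median was 5, against 7 over all windows, and the medians were 3 for astrocyte, 5.5 for oligodendrocyte lineage and 5 for microglial windows. Within 1 kb of the start the methylation level was 3.18% over 15 positions at Olig2, 7.08% over 15 at Irf8, 30.5% over 15 at Aldh1l1 and 95.7% over 3 at Aif1, which lie near the far edge of that distance. None of the CGs in the windows of Olig2, Irf8 and Aif1 had a measured value, so their levels come from other positions near the start. The measured positions thus averaged low levels at Olig2 and Irf8, the 3 of Aif1 inside the gene were nearly fully methylated, and Aldh1l1 lay between. At Irf8, 6 neighbouring positions inside the gene (chr8:120736789-120737051) were higher, with a mean of 16.9%. The CpGs in capitals in Aldh1l1 had mean levels of 40.4% and 49.1% in standard mice, 6.67% and 13.1% in enriched mice and 15.1% and 35.3% in withdrawal mice. They had values in only 11 and 12 of the 15 mice and were not tested singly. Both lie in a block of 13 neighbouring positions (chr6:90550397-90550576, blocks are described below). The enriched minus standard difference of this block was -11.9 points (limma unadjusted p = 0.142, adjusted p = 0.883). RefSeq windows for the other 10 members were not used here.

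Percentages were available without read counts, so that depth is unknown and no counting interval can be given. As a partial view of it, member positions with a value ran from 294 of 536 (54.9%) in standard mouse 1 to 512 (95.5%) in withdrawal mouse 4, and enriched mice 1 and 5 had 385 and 373. Only 99 member positions had a value in all 15 mice. Of the 6832 member values, 53.2% were exactly 0 and 12.6% exactly 100, against 42.4% and 21.1% in the whole CpG table. For 31 member CpGs both strands were measured, which gives 343 pairs of values within a mouse. The strands differed by a median of 0 points over all pairs but by 18.7 points at CpGs with a mean level between 20 and 80% (56 pairs), and the whole table gave 21.0 points there. Values at CpGs of intermediate level thus differed widely between strands, and how much of this was measurement noise was not tested. Gene means over several positions are the main measure below.

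Coverage by the method was uneven between the classes. Of the astrocyte genes, 8 of 10 had CpG positions (228 in all), of the oligodendrocyte lineage genes 14 of 14 (253) and of the microglial genes 8 of 9 (55). Gfap, the intermediate filament of astrocytes, S100b, an astrocytic calcium-binding protein, and Cx3cr1, the fractalkine receptor of microglia, had no position. At Aldoc 9 positions also lay within 2 kb of Pigs or Spag5, and the 7 positions of P2ry12 also lie in Med12l, the gene that surrounds it.

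The 3 classes differed in level. With each gene's mean over its positions taken in every mouse and then averaged over the mice, the median gene was at 14.8% among the astrocyte, 25.6% among the oligodendrocyte lineage and 79.8% among the microglial genes, against 22.6% over the 16668 protein-coding genes with positions. Genes under 20% numbered 5 of 8, 5 of 14 and 2 of 8, and genes over 80% numbered 0, 3 and 4. The heat map of gene means by mouse shows that these levels recurred in most mice, with dark rows in the astrocyte panel and bright rows in the microglial panel.

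**Figure D1:**
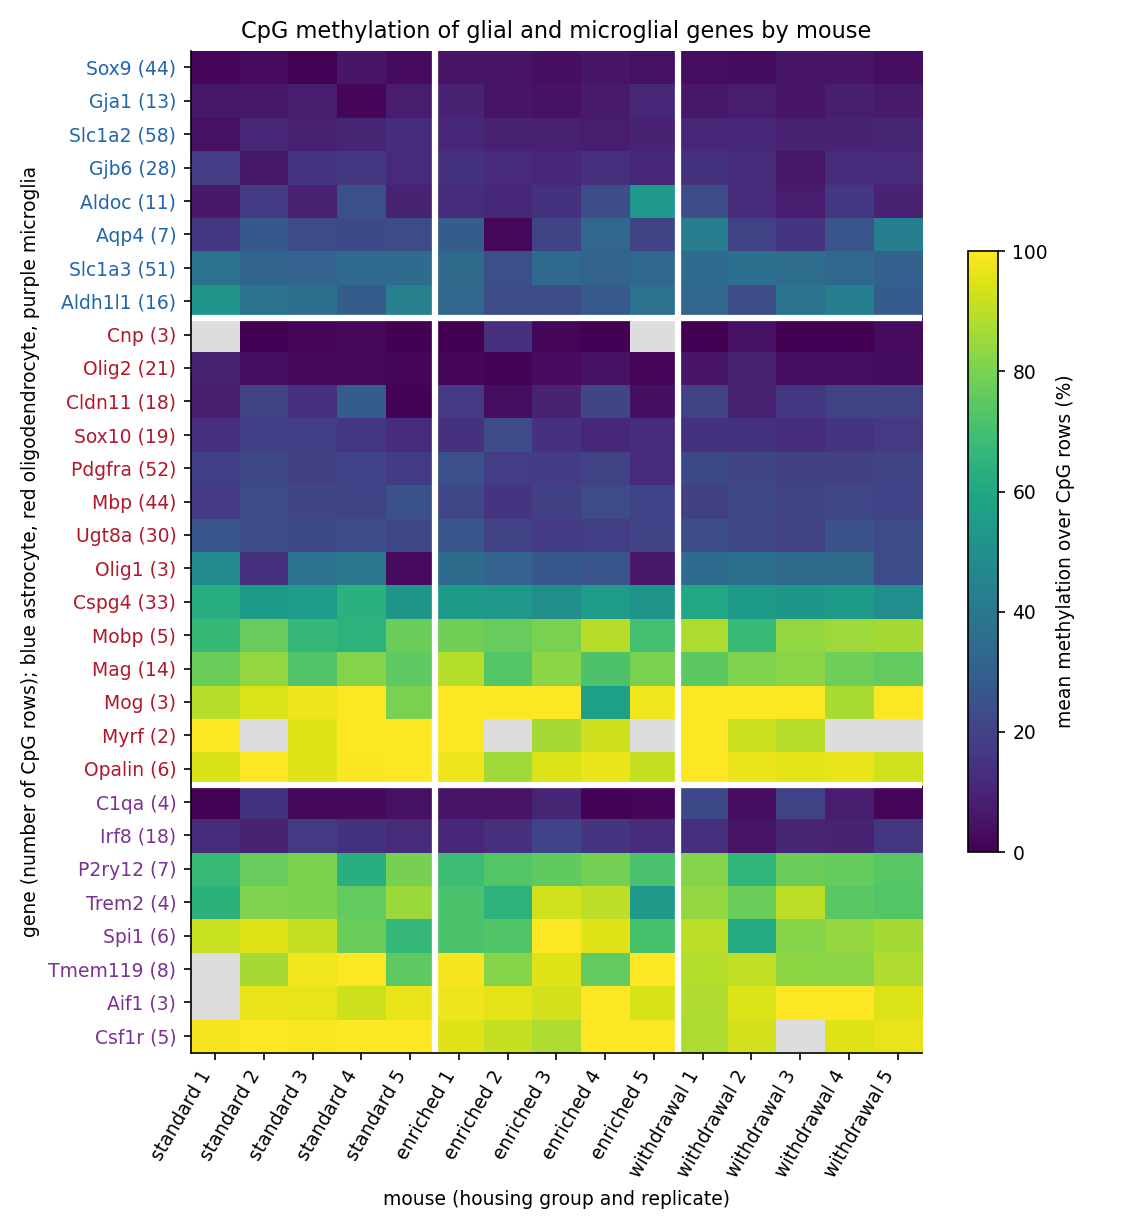
Mean CpG methylation (colour, 0 to 100%) of the 30 genes with CpG positions (rows, with the number of positions, in the order of their level within each class) in each of the 15 mice (columns); grey means no value. Sox9, Cnp and C1qa are dark in nearly every mouse, and Opalin, Aif1 and Csf1r are bright in nearly every mouse, whatever the housing.

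The levels of single genes that follow are means over positions, each position being the mean of the 3 group means. Among the astrocyte genes the transcription factor Sox9 (chr11:112782210-112787757) had the lowest level, 4.15% over 44 positions. Gja1 and Gjb6, the gap junction proteins connexin 43 and connexin 30, were at 6.73% and 12.4%. The glutamate transporter genes Slc1a2 and Slc1a3 were at 9.75% over 58 and 33.5% over 51 positions, and both had nearly unmethylated starts: positions within 1 kb of a start averaged 1.56% and 1.24%, and those farther away 20.6% and 58.0%. Aldoc, a glycolytic enzyme, was at 15.1%, Aqp4, the water channel of astrocytic endfeet, at 23.9% over 7 positions, and Aldh1l1 at 34.2% over 16 positions. At Aldh1l1 12 of the 16 positions had a mean level between 20 and 80%. Within the class, then, Aldh1l1 was the gene with the highest level over all positions, and its intermediate positions lay near the start. Near the start alone Aldoc was higher, at 39.1% over 4 positions against 30.5% over 15 at Aldh1l1. The 7 flank positions of Aldoc were at 1.33%.

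Genes of the oligodendrocyte lineage fell into a low and a high set. The low ones were Cnp, a myelin enzyme (2.07%), Olig2 (3.47%), Cldn11, a tight junction protein of myelin (14.3%), Sox10, a lineage transcription factor (15.2%), Pdgfra (19.3%), Mbp, myelin basic protein (20.5%), and Ugt8a, which makes the myelin lipid galactocerebroside (22.0%). The high ones were the myelin proteins Mobp (77.2%), Mag (78.2%) and Mog (93.5%), the maturation factor Myrf (95.2%) and the myelin membrane protein Opalin (95.9%). Between them lay Olig1, the neighbour and relative of Olig2 (29.0%, 3 positions, all in its flank), and Cspg4 (54.7%). The 5 high genes had only 2 to 14 positions each, and Mog, Mag, Mobp and Opalin had none within 1 kb of a start. Ugt8a held both states in 1 gene, with 1.75% over 23 positions near its start and 88.4% over the 7 others.

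Of the 8 microglial genes, 6 had levels of 74.0% or more. These were P2ry12, the ADP receptor of resting microglia (74.0%), Trem2, a lipid-sensing receptor (78.1%), Spi1, which encodes the factor PU.1 (83.5%), Tmem119, a marker of resident microglia (87.7%), Aif1 (95.7%) and Csf1r (96.3%). The other two were C1qa, a subunit of complement C1q (7.39% over 4 positions), and Irf8 (13.3% over 18). At P2ry12 the 2 positions near the start were at 24.7% and the 5 others at 93.8%. At Irf8 the positions of the flank averaged 0.627% and those inside the gene 25.9%. The class is thus a set of mostly methylated genes with few positions, and its summed level rests on 55 positions of which 18 belong to Irf8.

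Position along the gene went with much of this. For the 23 members whose strand and start were known, positions within 1 kb of a start averaged 7.49% (106 astrocyte positions), 9.06% (70, oligodendrocyte lineage) and 22.1% (20, microglia), and positions farther away averaged 37.0% (71), 47.9% (115) and 76.2% (12). The microglial value near a start depended on single genes. Without the 3 Aif1 positions, which lie 968 to 984 bases inside the start, it was 9.15%, close to that of the oligodendrocyte lineage. Without the 15 Irf8 positions it was 67.3% over the 5 that were left. The medians near a start were 1.62, 2.74 and 6.41%, and the microglial one was 3.39% without Aif1 and 92.5% without Irf8. By single position, 73.2% of astrocyte, 62.5% of oligodendrocyte lineage and 32.7% of microglial positions were under 20%, and 7.02%, 20.9% and 47.3% were over 80%; in the whole table the shares were 52.4% and 30.4%. Intermediate positions, between 20 and 80%, made up 19.7%, 16.6% and 20% of the classes and 17.2% of the whole table. Positions of 1 fragment share reads, and so these shares are a description without a test.

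**Figure D2:**
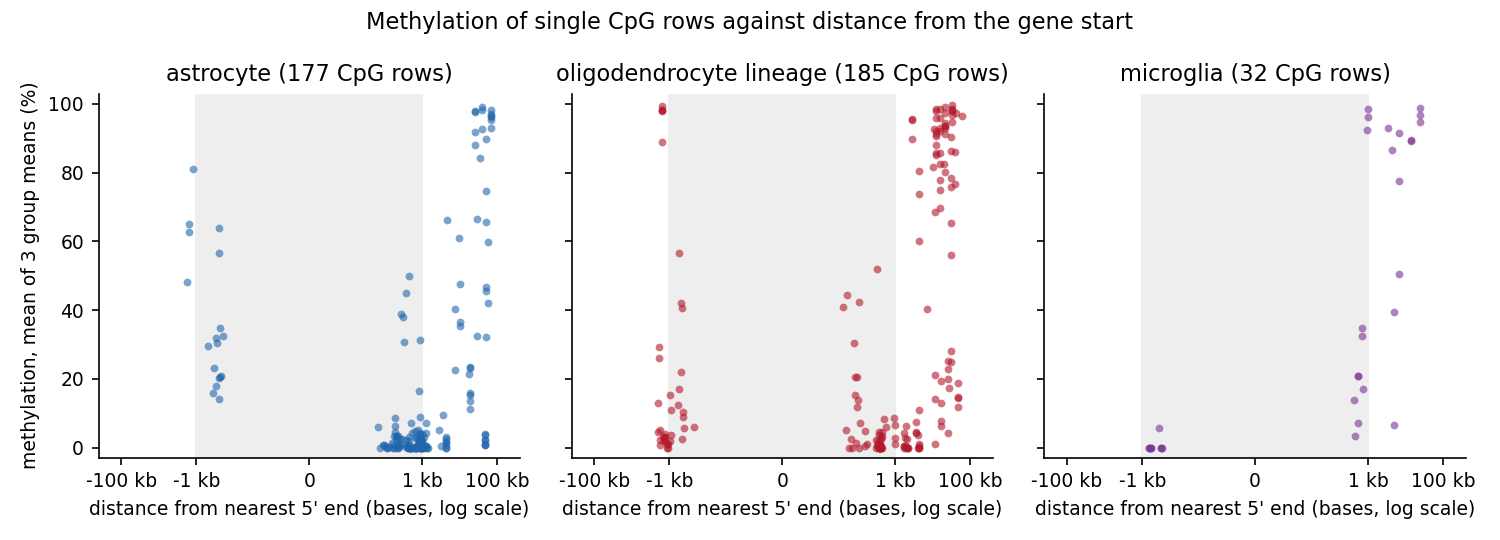
Methylation of single CpG positions (vertical axis, mean of the 3 group means, %) against the distance from the nearest start of the gene (horizontal axis, log scale, downstream to the right; the shaded band is 1 kb either side), for the members of each class with a known strand. Most positions inside the band sit near 0, with medians of 1.62, 2.74 and 6.41% (astrocyte, oligodendrocyte lineage, microglia). Positions outside the band had medians of 23.3, 40.2 and 89.3% in the same order.

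As a summary per mouse, the mean was taken over the regions with at least 3 positions that have a value in all 15 mice: 5 astrocyte regions (Aqp4, Aldh1l1, Slc1a2, Slc1a3, Sox9), 7 oligodendrocyte lineage regions (Mbp, Mog, Mag, Olig1, Olig2, Sox10, Cldn11) and 2 microglial regions (P2ry12, Irf8). In all 15 mice the microglial mean was the highest and the astrocyte mean the lowest. The astrocyte mean was 17.7% ± 0.521 (SD, n = 5) in standard mice, 16.0% ± 4.86 (n = 5) in enriched mice and 17.7% ± 4.13 (n = 5) in withdrawal mice. The 5 standard mice lay within 17.1 to 18.3%, while the enriched mice had 19.8, 9.66, 11.9, 19.1 and 19.7% and the withdrawal mice 22.0, 11.9, 14.98, 19.5 and 20.04%. The standard values thus fell inside the range of both other groups, whose mice were more scattered.

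The oligodendrocyte lineage mean was 34.2% ± 4.97 (SD, n = 5) in standard mice, 33.5% ± 4.63 (n = 5) in enriched mice and 36.9% ± 2.45 (n = 5) in withdrawal mice, and the microglial mean was 52.1% ± 3.87, 52.3% ± 5.76 and 54.7% ± 6.30 (n = 5 each). The groups overlapped in every pair. Withdrawal mouse 1 had the highest astrocyte mean (22.0%) and the highest microglial mean (64.3%) of all mice. Standard mouse 1 had the lowest microglial mean (47.3%), enriched mouse 2 the lowest astrocyte mean (9.66%) and standard mouse 5 the lowest oligodendrocyte lineage mean (26.4%), so that no mouse was lowest in 2 classes. No p-value is given for these means, because their members were chosen with results of these data known.

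**Figure D3:**
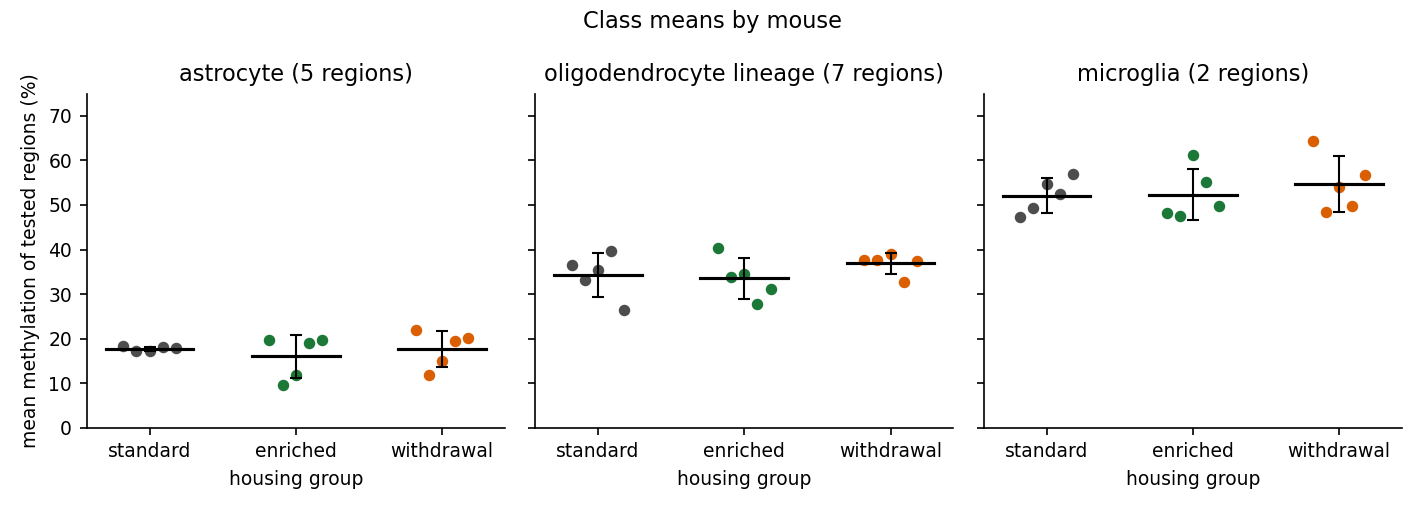
Mean methylation over the tested regions of each class (vertical axis, %) for each mouse (points) by housing group; black lines are group means and bars are SD over 5 mice. The groups overlap in each panel, and the standard mice lie closest together in the astrocyte mean (17.1 to 18.3%), though not at each of its regions.

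The effect of housing was tested per gene region with limma's moderated test on log-transformed percentages, two-sided and adjusted by Benjamini-Hochberg over all 8347 regions of the table; 14 members had enough complete positions. Enrichment against standard housing changed none of the 14 at an adjusted p under 0.05, where 0.012% of all regions (1 region) were called. At an unadjusted p under 0.05 none of the 14 passed, and 6.04% of all regions did. Of the 14, 6 had a higher mean in the enriched group and 8 a lower one, with a median difference of -1.46 points against 0.0555 over all regions. The 3 members with the smallest p were Sox9, Aldh1l1 and Slc1a2.

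Sox9 was at 0.915, 5.46, 1.12, 6.17 and 2.19% in the standard mice, at 7.59, 5.28, 3.47, 9.44 and 7.48% in the enriched mice and at 0.544, 0.999, 6.13, 2.64 and 8.28% in the withdrawal mice. The enriched mean was the highest, 6.65% ± 2.31 (SD, n = 5) against 3.17% ± 2.48 in the standard group, but all groups overlapped. The enriched minus standard difference was 3.48 points, or 0.59 ± 0.29 (SE) on the log2 scale of the test (limma unadjusted p = 0.0588, adjusted p = 0.827).

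Aldh1l1, whose sequence is shown above, was at 51.4, 33.2, 40.8, 30.3 and 41.2% in the standard mice, at 30.3, 25.1, 26.3, 27.6 and 44.2% in the enriched mice and at 36.4, 16.4, 31.4, 40.9 and 26.0% in the withdrawal mice. Most enriched mice were at or below the lowest standard mouse, but enriched mouse 5 was above 4 of the 5 standard mice. The enriched minus standard difference was -8.66 points, or -0.50 ± 0.30 (SE) on the log2 scale (limma unadjusted p = 0.116, adjusted p = 0.862); without enriched mouse 5 it was -12.0 points (limma unadjusted p = 0.0314, adjusted p = 0.795), and without standard mouse 1 it was -5.66 points (limma unadjusted p = 0.281). Slc1a2 differed by -1.60 points between 11.03% ± 1.46 in the standard and 9.43% ± 1.62 (SD, n = 5) in the enriched group (limma adjusted p = 0.887). With all mice in the fit, none of the 3 differences had an adjusted p under 0.05 by this test.

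Withdrawal against standard housing, which asks what was left 3 months after enrichment ended, also changed none of the 14 members at an adjusted p under 0.05, where 0% of all regions were called. None had an unadjusted p under 0.05 (5.34% of all regions). The withdrawal mean was higher in 11 of the 14 and the median difference was 1.96 points, beside 56.2% of all regions that were higher and a median of 0.293 points. The members with the smallest p were Olig2 (7.02 points, limma adjusted p = 0.974), Aldh1l1 (-9.16 points, limma adjusted p = 0.974) and Mog (5.19 points, limma adjusted p = 0.974). Their size rested in part on single mice: it was 4.37 points for Olig2 and -5.71 points for Aldh1l1 without withdrawal mouse 2, and 2.12 points for Mog without standard mouse 5. Aldh1l1 had thus nearly the same level in the withdrawal group, 30.2% ± 9.51 (SD, n = 5), as in the enriched group, 30.7% ± 7.80; both were compared with the same 5 standard mice.

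Mog, a surface protein of myelin, was at 89.4, 94.4, 97.4, 100 and 80% in the standard mice, at 100, 100, 100, 56.6 and 98.0% in the enriched mice and at 100, 100, 100, 87.2 and 100% in the withdrawal mice. It was thus fully methylated in 1 standard, 3 enriched and 4 withdrawal mice, and enriched mouse 4 was far below the rest. The enriched minus standard difference in means was -1.32 points while the log2 difference was 0.33.

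Withdrawal against enrichment changed none of the 14 members at an adjusted p under 0.05 (0% of all regions). At an unadjusted p under 0.05 only Olig2 passed, 1 of 14 (7.14%), where 4.84% of all regions did. Olig2 was measured here at 3 positions in its 3′ flank (chr16:91229084-91229138), not at the CpG-rich start shown above. It was at 11.5, 0, 0, 3.13 and 4% in the standard mice, at 0, 0, 6.45, 0 and 1.75% in the enriched mice and at 5.13, 21.3, 20, 1.41 and 5.88% in the withdrawal mice. Withdrawal mice 2 and 3 stood above all others, and the rest overlapped. The withdrawal minus enriched difference was 9.11 points, or 1.26 ± 0.47 (SE) on the log2 scale (limma unadjusted p = 0.0187, adjusted p = 0.959), and the unadjusted p was 0.0573 without withdrawal mouse 2. When more positions entered the mean of Olig2, the difference was 3.004 points (positions with values in at least 3 mice per group) or 1.64 points (gene plus 5 kb).

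The next 2 members in this comparison were Sox9, with a withdrawal minus enriched difference of -2.93 points (limma adjusted p = 0.995), and Aqp4, with 10.5 points (limma adjusted p = 0.995). Aqp4 was at 19.4, 31.5, 28.6, 32.4 and 27.5% in the standard mice, at 43.0, 3.52, 11.1, 42.8 and 29.97% in the enriched mice and at 52.0, 27.0, 21.0, 33.9 and 49.1% in the withdrawal mice. The enriched mice lay both above and below all the standard mice, and without enriched mouse 2 the withdrawal minus enriched difference was 4.89 points. In the 14 member regions, groups that did not overlap numbered 0 in each of the comparisons of enriched with standard, withdrawal with standard and withdrawal with enriched mice, where 0.719%, 0.851% and 0.767% of all regions had such groups. Aqp4 had the largest spread between mice within groups of the 14 members, with a residual SD of 13.4 points, followed by Olig1 with 13.2 points.

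**Figure D4:**
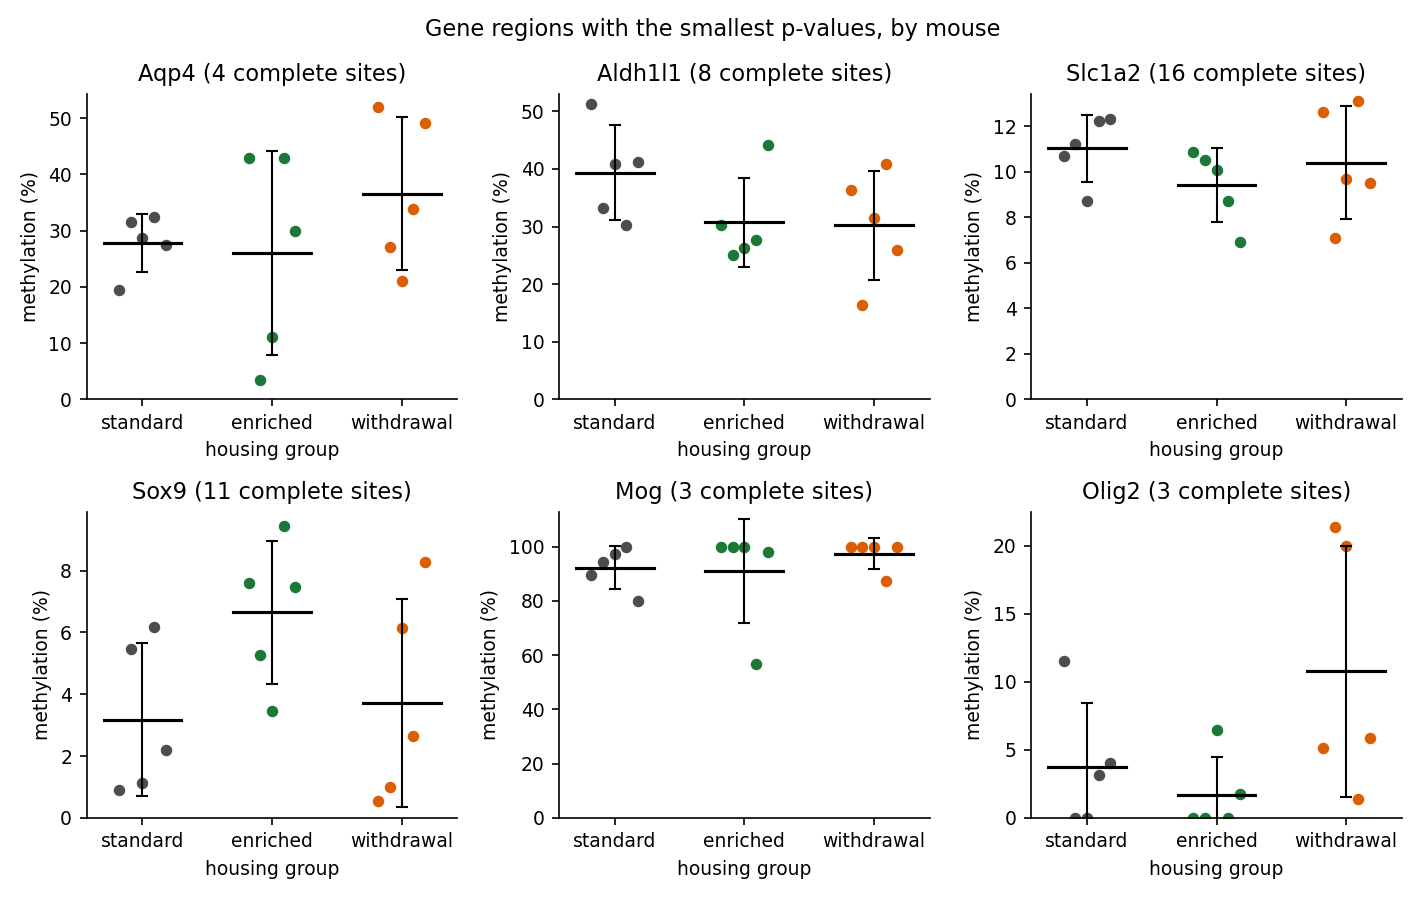
Methylation (vertical axis, %, a separate scale for each gene from 0) of the 6 member regions that were among the 3 with the smallest p in at least 1 of the 3 comparisons, for each mouse (points) by housing group; black lines are group means and bars are SD over 5 mice (bars can pass 100%, values cannot). All pairs of groups overlap, with withdrawal mice 2 and 3 highest at Olig2 (21.3 and 20%).

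For Olig1 the flank positions were at 48.3, 14.4, 37.8, 40.01 and 2.78% in the standard mice, at 35.3, 31.4, 27.6, 26.4 and 6.67% in the enriched mice and at 34.8, 36.9, 34.7, 34.5 and 23.4% in the withdrawal mice. Standard mice 2 and 5 were below the other 3 standard mice, and enriched mouse 5 was the lowest enriched mouse. Of the microglial regions, P2ry12 was at 55.2, 67.5, 73.1, 65.7 and 77.3% in the standard mice, at 62.2, 64.9, 69.7, 71.0 and 62.5% in the enriched mice and at 74.3, 65.0, 71.3, 70.2 and 69.3% in the withdrawal mice. Its group means of 67.7, 66.1 and 70.0% were close to each other (smallest limma adjusted p = 0.951). Irf8 was at 39.5, 31.1, 36.1, 39.0 and 36.5% in the standard mice, at 34.2, 30, 52.5, 39.1 and 36.8% in the enriched mice and at 54.3, 31.9, 36.9, 29.4 and 44.2% in the withdrawal mice. These Irf8 values rest on 3 of its 18 positions. Enriched mouse 3 and withdrawal mouse 1 stood above the others there. They also had the 2 highest microglial means, but Irf8 is itself 1 of the 2 regions in that mean. Over all Irf8 positions with a value, enriched mouse 3 was again the highest, at 19.95%. Withdrawal mouse 1 was then at 13.99%, below standard mouse 3 at 17.2%. The withdrawal mean of Irf8 was the highest of the groups at the 3 positions and the lowest over all positions.

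The members without a test are described by all their positions. Mobp averaged 70.5% ± 6.13 in standard mice, 78.9% ± 6.83 in enriched mice and 82.2% ± 8.28 in withdrawal mice (SD, n = 5 each), and Cspg4 57.8% ± 5.16, 52.7% ± 2.27 and 54.2% ± 3.91. Pdgfra averaged 19.3% ± 1.60, 18.4% ± 4.52 and 20.4% ± 1.47, and Ugt8a 23.5% ± 2.02, 20.5% ± 3.65 and 22.5% ± 1.98 in the same order. Csf1r averaged 99.5% ± 0.638 in standard mice (n = 5), 94.8% ± 5.44 in enriched mice (n = 5) and 93.0% ± 3.95 in withdrawal mice (n = 4). C1qa averaged 4.92% ± 5.604, 4.81% ± 3.68 and 11.003% ± 9.10 (n = 5 each).

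Single CpG positions gave no call either. Of the 87 member positions that had a value in every mouse and a range of at least 5 points, 0 passed an adjusted p under 0.05 in any comparison (limma), as did 0% of all 100562 positions tested. At an unadjusted p under 0.05, 2, 3 and 3 passed in the comparisons of enriched with standard, withdrawal with standard and withdrawal with enriched mice, that is 2.30%, 3.45% and 3.45%, where 5.15%, 4.42% and 4.3% of all positions passed. The member shares were thus at or below those of the whole table.

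The smallest p of the enriched against standard comparison belonged to a position in the flank of Sox9 (chr11:112781752, minus strand). It was at 0% in the 5 standard mice, at 0, 0, 30, 27.3 and 15.4% in the enriched mice and at 0, 0, 10.5, 0 and 6.06% in the withdrawal mice (limma unadjusted p = 0.0116, adjusted p = 0.879). The following positions lay inside Slc1a2 (chr2:102677117, 34.8% ± 33.9 in the standard group and 5.83% ± 13.0 with enrichment; limma adjusted p = 0.914) and inside Pdgfra (chr5:75183218, 31.3% ± 10.8 and 15.8% ± 13.3; limma adjusted p = 0.914). For withdrawal against standard they lay inside Mog (chr17:37020565, 78.3% ± 25.2 and 100% in all 5 withdrawal mice; limma adjusted p = 0.961), 158 bases inside the start of Slc1a3 (chr15:8710649) and in the flank of Olig2 (chr16:91229138). The Slc1a3 position was at 0% in all 10 standard and enriched mice and at 0, 3.85, 0, 6.20 and 9.63% in the withdrawal mice, and was also the first for withdrawal against enriched (limma adjusted p = 0.976). The positions that followed it there lay inside Mbp (11.3 points higher after withdrawal; limma adjusted p = 0.976) and Aqp4 (19.2 points higher; limma adjusted p = 0.976). In none of these did the groups compared separate.

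Because only 99 member positions were complete, neighbouring positions were also joined into blocks, an analysis added after the values had been seen. A block held at least 3 positions with gaps of at most 200 bases, and its value in a mouse was the mean deviation of that mouse from the position means, added to the block mean, so that missing positions were allowed. The members held 65 tested blocks of 48873 in the table. None passed an adjusted p under 0.05 (limma; 0% of all blocks in all 3 comparisons). With an unadjusted p under 0.05 as the limit, the members had 6, 1 and 6 blocks in enriched against standard, withdrawal against standard and withdrawal against enriched, or 9.23%, 1.54% and 9.23%, where 5.74%, 4.91% and 4.78% of all blocks passed. All of these blocks are named below.

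Of the 6 blocks for enriched against standard, 4 were lower in the enriched mice. A block of 3 positions in the last part of Mbp (chr18:82581780-82581843) was at 93.9, 100, 94.4 and 100% in 4 standard mice and at 76.7, 53.3, 93.3 and 76.2% in 4 enriched mice, while the 5 withdrawal mice had 92.5, 85.3, 88.1, 89.9 and 100%. All standard values lay above all enriched values, the nearest pair being 93.9% and 93.3%. The means were 97.1% ± 3.38 (SD, n = 4) and 74.9% ± 16.4 (n = 4), a difference of -22.2 points, and the withdrawal mean was 91.2% ± 5.58 (n = 5). The test gave an unadjusted p of 0.00222 and an adjusted p of 0.692 for enriched against standard, and 0.0320 and 0.999 for withdrawal against enriched (limma). The Mbp region, tested over 7 complete positions, went the other way. It was 3.07 points higher in enriched than in standard mice (limma unadjusted p = 0.271, adjusted p = 0.893).

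A block of 9 positions just inside the start of Cspg4 (chr9:56865144-56865212) was at 28.3, 30.9, 48.2 and 49.3% in 4 standard mice, at 38.2, 13.8, 0, 21.9 and 13.8% in the enriched mice and at 27.2, 27.5, 26.6, 19.2 and 14.2% in the withdrawal mice. The standard mean of 39.2% ± 11.1 (SD, n = 4) was above the enriched mean of 17.5% ± 13.99 (n = 5) and the withdrawal mean of 22.9% ± 5.98 (n = 5). All standard values lay above all withdrawal values, and enriched mouse 1 was inside the standard range. For enriched against standard limma gave an unadjusted p of 0.0150 and an adjusted p of 0.841, and for withdrawal against standard the adjusted p was 0.982.

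Both glutamate transporter genes had such a block inside the gene and far from the start. In Slc1a3 (chr15:8659581-8659798, 5 positions) the standard mice had 87.6, 51.4, 55.2, 66.7 and 74.1%, the enriched mice 68.7, 9.81, 54.1, 49.5 and 11.5% and the withdrawal mice 71.4, 60.8, 84.6, 56.3 and 30.4%. Enriched mice 2 and 5 were far below the others, and the difference of -28.3 points had an unadjusted p of 0.0275 and an adjusted p of 0.857 (limma). In Slc1a2 (chr2:102676930-102677299, 5 positions) the means were 24.0% ± 9.32 in standard mice, 11.6% ± 7.17 in enriched mice and 14.6% ± 7.04 in withdrawal mice (SD, n = 5 each; enriched minus standard, limma adjusted p = 0.857). The opposite direction was seen in a second block of Slc1a3 (chr15:8670970-8671024), at 90.8% ± 13.9 (n = 5) in the standard and 100% in 4 enriched mice, where the difference of 9.23 points fell to 3.21 points without standard mouse 3, and in a flank block of Irf8 (chr8:120736007-120736052), at 0.353% ± 0.705 (n = 4) and 4.23% ± 3.17 (n = 4).

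**Figure D5:**
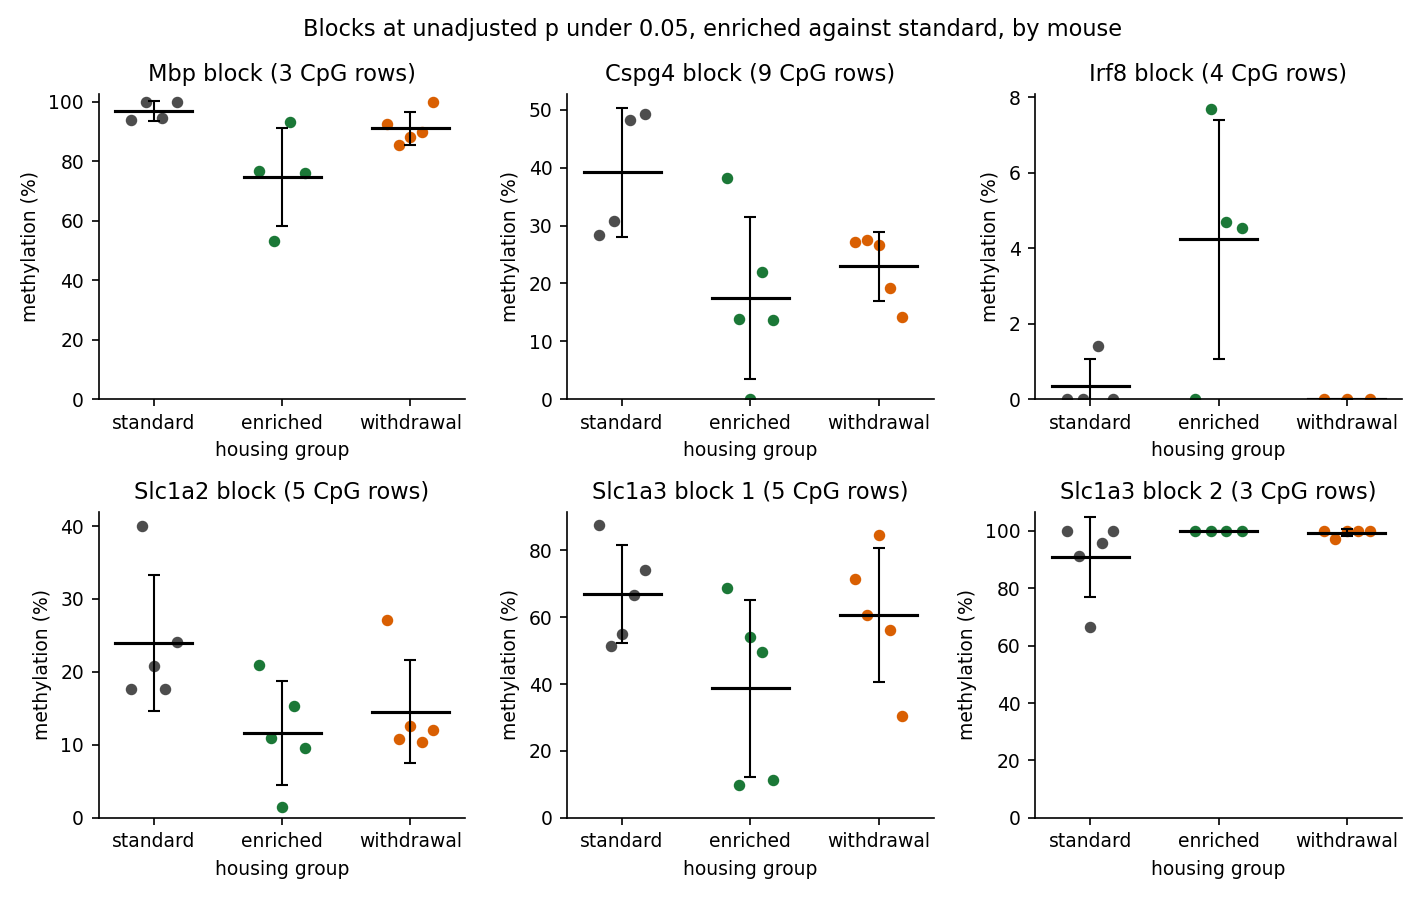
Methylation (vertical axis, %, a separate scale from 0 for each block) of the 6 member blocks with an unadjusted p under 0.05 for enriched against standard, for each mouse with a value (points) by housing group; black lines are group means and bars are SD (bars can pass 100%, values cannot). The Mbp block separates the standard mice (93.9 to 100%) from the enriched mice (53.3 to 93.3%), and the other 5 overlap.

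For withdrawal against standard the block was the 5 positions measured in Csf1r (chr18:61109667-61109762). The standard mice had 98.7, 100, 99.0, 100 and 99.9%, the enriched mice 95, 91.1, 87.7, 100 and 100%, and 4 withdrawal mice 87.5, 93.0, 95.1 and 96.5%. All withdrawal values lay below all standard values, with a difference of -6.50 points (limma unadjusted p = 0.0148, adjusted p = 0.982). The remaining blocks concerned withdrawal against enriched. They were the Olig2 flank already described, the Irf8 flank (4.23 points lower after withdrawal), a flank block of Pdgfra (chr5:75149576-75149596, 0% in all 5 enriched mice and 6.82% ± 8.22 in the withdrawal mice) and 2 blocks around the start of Cldn11, 1 before it (chr3:31149366-31149513, 16.8% ± 15.2 and 32.8% ± 5.11) and 1 inside the gene (chr3:31149968-31150036, 1.01% ± 1.13 and 4.80% ± 3.55). Each had an adjusted p of 0.999 (limma). Unlike these 2 blocks, the Cldn11 region, tested over 4 complete positions, had a withdrawal minus enriched difference of -2.65 points (limma unadjusted p = 0.982).

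Of the 65 member blocks, the groups did not overlap in 1 when enriched and standard mice were compared (Mbp), in 2 for withdrawal and standard mice (Csf1r and Cspg4) and in 0 for withdrawal and enriched mice, where 1.52%, 1.43% and 1.44% of all blocks had groups that did not overlap. Enriched mouse 2 was the lowest enriched mouse at the Mbp block, the first Slc1a3 block and the Aqp4 region, which were picked after the values had been seen. At the Cspg4 and Slc1a2 blocks the lowest was enriched mouse 3 (0 and 1.54%). At the block before Cldn11 it was enriched mouse 5 (0%).

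Further glial markers were read in the same way. Of 60 further glial and microglial genes, 50 had positions and 27 were tested. None was called, and 1, 1 and 2 of the 27 had an unadjusted p under 0.05 in the 3 comparisons, where 6.04%, 5.34% and 4.84% of all regions did. Their median levels repeated the order of the classes: 12.4% for 18 astrocyte, 30.8% for 16 oligodendrocyte lineage and 51.6% for 16 microglial genes. The smallest p belonged to Tcf7l2, a transcription factor of maturing oligodendrocytes, with 42.0% ± 2.97 in standard mice, 46.2% ± 3.77 in enriched mice and 48.6% ± 3.18 in withdrawal mice (SD, n = 5 each). The withdrawal minus standard difference was 6.68 points (limma unadjusted p = 0.00903, adjusted p = 0.931), and all withdrawal mice (45.1 to 53.8%) were above all standard mice (36.9 to 44.3%), as was the case, in either direction, in 0.851% of all regions. The next was Zfp536, a zinc finger gene, with 34.3, 32.8 and 36.8% (withdrawal minus enriched 3.998 points, limma adjusted p = 0.972).

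Genes of other cells in the dissected tissue were read in the same way. Of 20 neuronal genes 10 were tested and of 12 vascular genes 6, and none was called (limma; the smallest unadjusted p-values were 0.00524 and 0.0259). Over all their positions, the 19 neuronal and 12 vascular genes with positions had median levels of 10.3% and 38.2%. The tested regions alone, read at complete positions, had medians of 34.1% and 20.7%. The means by group that follow are over the tested regions. The mean over the neuronal regions was 38.3% ± 3.19 in standard mice, 39.1% ± 2.01 in enriched mice and 39.4% ± 1.45 in withdrawal mice, and that over the vascular regions was 34.9% ± 1.49, 33.7% ± 1.56 and 35.0% ± 4.35 (SD, n = 5 each). Their ranges over mice, 35.1 to 43.2% and 30.3 to 41.3%, overlapped between all groups.

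The member regions varied more between mice of a group than most regions did. Their median residual SD was 7.03 points, against 3.38 points over all 8347 regions; it was 2.76 for the astrocyte, 9.48 for the oligodendrocyte lineage and 6.80 for the microglial regions. Of the 14 members, 6 were measured at only 3 complete positions, whereas Slc1a2, Slc1a3 and Sox9, with 16, 17 and 11, had residual SDs of 1.91, 1.805 and 2.76 points. The number of positions and the part of the gene they lie in moved with the spread, and their share in it was not tested.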

How the data were processed

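Per the labels' protocols, RRBS libraries were made from dentate gyrus DNA of 15 mice. The authors deposited percent methylation per cytosine and strand, 1 column for each mouse, with no read counts, so depth and its precision are unknown. The submitters' processing notes name Trim Galore 0.4.0, cutadapt 1.8.1, Bismark 0.16.1, methylKit 1.5.2 and the build mm10; a coverage minimum is not given in the sources used here. Each CpG row has a value in 3 or more mice per group. The table holds CpG rows and then non-CpG rows: of 40643 CpG rows inside RefSeq promoter sequences of GRCm38 100% lay on the letters CG, and of 118360 non-CpG rows 0%, which also settles the build. The Y chromosome and the mitochondrial genome were left out.

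Gene regions (RefSeq gene plus 2 kb, mean over at least 3 sites with values in all mice), single sites (complete, range at least 5 points) and blocks (added after seeing the data) were tested by limma 3.58.1 (R 4.3.3) on log2((percent + 5)/(100 - percent + 5)) with trended variance and all 3 groups in 1 fit, two-sided, with Benjamini-Hochberg adjustment over every feature of the same kind; the model was tested on simulated data. Other steps used Python 3.11.15, pandas 2.3.3 and numpy 2.4.6. Mice were the replicates and groups followed the housing labels. The members and gene lists were chosen with earlier results of these data known. Levels are given for all members with positions. Tests are given for the 3 member regions and 3 member sites with the smallest p in each comparison. They are also given for the 2 smallest-p regions of the further glial list. Values by mouse are given for those member regions and for the 2 regions of each class with the largest spread. Blocks were named at an unadjusted p under 0.05, apart from the Aldh1l1 block given with the sequences. Alternatives were an offset of 1 point, the percent scale, sites valued in 3 or more mice per group, the replicate number as a block, each mouse left out, no range filter, at least 1 complete site, the gene alone and the gene plus 5 kb.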

Additional observations from a re-analysis of the deposited data

Results flagged for a closer look

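Among 99 groups of 4 or 5 mice (class means, member regions, named positions and named blocks), 16 held 1 mouse whose distance from the next value was large against the range of its group by Dixon's criterion, which chance alone meets in about 1 of 20 groups with bell-shaped values; the values here pile up at 0 and 100%. The oligodendrocyte lineage mean of withdrawal mouse 4 was 32.6%, below the others (next 37.4%).

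Among the regions, enriched mouse 5 stood at 44.2% at Aldh1l1 (next 30.3%), enriched mouse 4 at 56.6% and withdrawal mouse 4 at 87.2% at Mog (next 98.0% and 100%), withdrawal mouse 5 at 23.4% at Olig1 (next 34.5%), and enriched mouse 3 at 6.45% at the Olig2 flank (next 1.75%), which is the same value as that of the Olig2 block. Among single positions, enriched mouse 1 had 29.2% at chr2:102677117 in Slc1a2 and enriched mouse 3 had 19.4% at chr16:91229138 beside Olig2, where the other 4 enriched mice had 0%, and enriched mouse 4 had 55.6% at chr17:37020565 in Mog, where the other 4 had 100%.

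Among the blocks, standard mouse 3 had 1.41% at the Irf8 flank (the others 0%), standard mouse 2 had 40% and withdrawal mouse 1 had 27.1% at the Slc1a2 block, standard mouse 3 had 66.7% and withdrawal mouse 2 had 97.1% at the second Slc1a3 block, and withdrawal mouse 2 had 23.9% at the block before Cldn11. Standard mouse 3 and withdrawal mouse 2 each appear at 2 blocks, and no single mouse accounts for most of the list.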

How the results depend on the processing

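No member region, site or block was called at an adjusted p under 0.05 under any alternative run, and every named difference kept its direction in all of them, but not its size. With values in at least 3 mice per group the difference between withdrawal and enriched mice was 3.004 points at Olig2 (main 9.11) and -0.730 at Sox9 (main -2.93), that between withdrawal and standard mice 1.46 at Olig2 (main 7.02), and that between enriched and standard mice -0.278 at Slc1a2 (main -1.60) and 2.29 at Sox9 (main 3.48). With the gene plus 5 kb the Olig2 differences were 1.64 and 0.987, and with the gene alone Sox9 differed by 5.22 between enriched and standard mice. Besides those given with the results, differences that 1 mouse moved by over 1.5 times were the Slc1a2 region (-0.977 without enriched mouse 5), the Mbp block for withdrawal against enriched (16.3 to 9.10 without enriched mouse 2), the Pdgfra flank block (4.08 without withdrawal mouse 2) and the single positions of Mog (21.7 to 12.1 without standard mouse 5), Olig2 (18.3 to 7.85 without withdrawal mouse 3), Slc1a2 (-29.0 to -16.5 without standard mouse 1) and Slc1a3 (3.94 to 2.51 without withdrawal mouse 5). Of the 13 block differences at an unadjusted p under 0.05, 2 (Mbp and Cspg4, enriched against standard) stayed under 0.05 whichever mouse was left out and 11 did not. The counts over the whole table were less stable. For enriched against standard the 1 region called became 0 with at least 1 complete site, gene plus 5 kb, values in at least 3 mice per group and the replicate block, and ran from 0 to 3 with each mouse left out. For withdrawal against standard regions numbered 1 with the gene alone and 0 to 3 with each mouse left out, and for withdrawal against enriched 0 to 2. Sites called with an offset of 1 point numbered 3, 2 and 1 in the 3 comparisons, with no filter on the range 4 (withdrawal against standard) and 3 (withdrawal against enriched), and with each mouse left out 0 to 7, 0 to 11 and 0 to 6. Blocks called ran from 0 to 1 in both comparisons with the enriched group.

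Same-numbered mice of different groups did not deviate together (median r = -0.00361 over 15 pairs, and 1 of 15 mice correlated best with its own number), so the numbers were not taken as a pairing; the replicate block called 0 regions for enriched against standard.

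Class means moved with the sites used, since other genes then enter. Over all complete member sites the standard astrocyte mean was 14.7%, the oligodendrocyte lineage mean 30.3% (withdrawal 31.7%) and the microglial mean 60.4% (59.3, 59.7 and 62.1% in the standard, enriched and withdrawal groups). With values in at least 3 mice per group the oligodendrocyte lineage mean was 40.9% (41.0, 39.9 and 41.8%) and the microglial mean 65.9% (65.4, 66.4 and 65.9%). With the gene alone the standard astrocyte mean was 13.0% and the oligodendrocyte lineage mean 49.6% (49.5, 48.4 and 50.8%). The depth behind single percentages is unknown and limits every site.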

Other observations

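Non-CpG cytosines at the members were nearly unmethylated, as in the whole table: the mean was 0.707% over 1113 astrocyte, 0.786% over 1257 oligodendrocyte lineage and 0.971% over 380 microglial positions, against 0.830% over all. A cluster inside Pdgfra, the platelet-derived growth factor receptor of oligodendrocyte precursors, stood out when positions were ranked by level, and it was chosen after its values were seen. There 4 non-CpG cytosines on the minus strand of chromosome 5 (75194183, 75194193, 75194207 and 75194213) had means of 34.0, 33.3, 25.8 and 25.2% over 14 mice, and the lowest mouse at the first of them had 19.7%. By group the first was at 41.8% ± 8.49 in the standard (SD, n = 4), 29.7% ± 12.7 in the enriched (n = 5) and 32.2% ± 9.58 in the withdrawal group (n = 5), which overlap. The third went the other way, at 23.0% ± 7.40, 30.2% ± 10.3 and 23.5% ± 2.44, and the other two were at 37.0, 32.7 and 30.8% and at 27.4, 24.1 and 24.6%. The 1 CpG position within 500 bases was at 97.3%. No test was run on these positions.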
